A study of Mus musculus with 6 samples.

Results

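The genes described here are the core of the oxygen-sensing pathway of Lewis lung carcinoma (LLC) cells, 9 genes of the 18182 in the files, found by their symbols. They are the 3 alpha subunits of the hypoxia-inducible factor (HIF), Hif1a, Epas1 and Hif3a, the beta subunit Arnt, the prolyl hydroxylases Egln1, Egln2 and Egln3, the asparaginyl hydroxylase Hif1an, and Vhl. LLC is a mouse lung cancer line from the C57BL/6 strain. The cells sequenced here carried red fluorescent protein (LLC-RFP) and were injected under the skin of wild type C57BL/6 mice, either without other cells (LLC alone, 3 libraries) or together with bone marrow-derived mesenchymal stem cells (LLC with BMSCs, 3 libraries). Red fluorescent cells were then sorted from the primary tumours of both groups. The study's methods give 6-week-old females for its allografts in general, and no age for the sequenced tumours. No source used here says whether each library came from its own mouse, so that p-values measure the spread between libraries, which may be technical. Neither tumour oxygen nor HIF protein was among the values analysed here, and no library came from cells held in hypoxia.

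HIF is a pair of an oxygen-labile alpha subunit and the stable beta subunit Arnt, which is also a partner of other transcription factors. In oxygenated cells the EGLN enzymes (also called PHD proteins) hydroxylate prolines of the alpha subunit, Vhl binds the hydroxylated protein, and the ubiquitin ligase built on Vhl marks it for the proteasome. Hif1an (FIH) hydroxylates an asparagine that blocks binding of the coactivators Ep300 and Crebbp. When oxygen is low the alpha subunit escapes both reactions, joins Arnt and binds hypoxia response elements. Much of this control acts on the HIF alpha protein and not on its RNA, while Egln1 and Egln3 are themselves textbook HIF target genes and form a feedback loop. Solid tumours are known for poorly oxygenated regions.

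The 250 bases before the start site are shown for the 3 prolyl hydroxylases and Hif1a, because Egln3 and Egln1 were the members that rose, Hif1a the one that fell, and Egln2 the enzyme of the same family that did not pass the test. They are from RefSeq on build GRCm38.p6, read 5′ to 3′ on the strand of the gene, and capitals mark the core of the hypoxia response element, searched as ACGTG or GCGTG on both strands, which reads CACGT or CACGC where it lies on the other strand. The deposited files hold no coordinates, and the submitters' processing notes name mm8. The windows are chr12:54203875-54204124 (minus strand) for Egln3, chr8:124949255-124949504 (minus strand) for Egln1, chr7:27166803-27167052 (minus strand) for Egln2 and chr12:73907617-73907866 (plus strand) for Hif1a.
Egln3: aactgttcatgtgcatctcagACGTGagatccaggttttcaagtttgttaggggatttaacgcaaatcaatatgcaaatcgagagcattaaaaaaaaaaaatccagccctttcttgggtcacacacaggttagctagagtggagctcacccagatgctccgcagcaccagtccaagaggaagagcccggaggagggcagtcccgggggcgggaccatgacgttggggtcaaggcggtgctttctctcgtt
Egln1: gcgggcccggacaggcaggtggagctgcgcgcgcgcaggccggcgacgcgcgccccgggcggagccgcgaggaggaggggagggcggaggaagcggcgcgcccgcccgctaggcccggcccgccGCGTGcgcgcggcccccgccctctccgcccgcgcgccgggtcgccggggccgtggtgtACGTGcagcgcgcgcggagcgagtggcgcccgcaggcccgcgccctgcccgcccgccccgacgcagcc
Egln2: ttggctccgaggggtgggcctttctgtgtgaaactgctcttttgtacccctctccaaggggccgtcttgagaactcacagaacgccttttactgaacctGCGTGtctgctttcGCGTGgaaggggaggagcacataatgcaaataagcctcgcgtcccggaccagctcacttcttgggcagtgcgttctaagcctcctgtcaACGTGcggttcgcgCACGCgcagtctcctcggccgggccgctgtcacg
Hif1a: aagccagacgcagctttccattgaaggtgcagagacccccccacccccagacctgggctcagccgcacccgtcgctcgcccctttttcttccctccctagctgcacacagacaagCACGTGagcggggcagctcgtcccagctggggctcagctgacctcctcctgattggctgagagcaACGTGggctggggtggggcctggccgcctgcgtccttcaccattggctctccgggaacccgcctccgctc

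Egln3, which rose most, held 1 core in this window, first base at -229 from the start site. Egln1 held 2 cores, at -126 and -68, in a window that was 86.0% G and C. Egln2 held 4 cores, at -151, -137, -48 and -34, and the window of its other RefSeq start held 1. Hif1a held 3 cores at -135, -134 and -70, the first pair overlapping in the palindrome CACGTG. Arnt held 1 core and Hif3a 2, Hif1an and Vhl held none, and Epas1 has no entry in the table. Of 32851 promoter windows of this length, 38.6% held at least 1 core, 16.7% at least 2, 6.58% at least 3 and 2.58% at least 4. The number of cores did not follow the order of the changes in RNA given below. A match describes these letters and says nothing of binding.

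The estimated counts summed to between 33476347 and 46189113 per library, at which 3 counts are 0.0650 to 0.0896 CPM (counts scaled to a common library total). Levels are given as FPKM, fragments scaled by transcript length and library size, which can be set side by side between genes. Changes are log2 fold changes of LLC with BMSCs against LLC alone from edgeR's quasi-likelihood test on the estimated counts, with Benjamini-Hochberg adjustment over the 13353 genes that passed its filter on low counts. A gene is called higher or lower at an adjusted p under 0.05. The libraries of a group were not equally far apart, because LLC alone replicates 1 and 2 and LLC with BMSCs replicates 2 and 3 were each closer to one another than to the remaining library, although they still differed by more than sampling noise. LLC alone replicate 3 stood apart from its group, with a chi-square of 57.2 and 55.4 per gene against replicates 1 and 2, which gave 4.61 between themselves, and each result that turns on it is given without it. Of 8 epithelial and lung markers only Krt8 was above 1 FPKM, at 95.3 in LLC alone and 110 in LLC with BMSCs, while Nkx2-1, Sftpb, Sftpc, Epcam and Cdh1 were all under 0.05 FPKM in the mean of each group.

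Of the 7 members tested, 2 rose in LLC with BMSCs. Both were prolyl hydroxylases, Egln3 by 3.16-fold and Egln1 by 2.20-fold. Hif1a fell, by 1.28-fold. Arnt, Egln2, Hif1an and Vhl did not pass the test, and Epas1 and Hif3a were at a few counts per library and were not tested. Calls were common in these data: 31.5% of all tested genes were called higher and 31.3% lower, so that 2 higher and 1 lower of 7 is no larger a share than over all genes. Both rises also exceeded a log2 fold change of 1, which 8.65% of the tested genes did. The FPKM values of the groups did not overlap for 5 of the 7 members, against 70.6% of all tested genes. The median log2 fold change was 0.0057 over the 7 members and 0.012 over all tested genes. In sorted bulk cells, fewer cells that express a gene and less RNA per cell cannot be told apart.

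**Figure D1:**
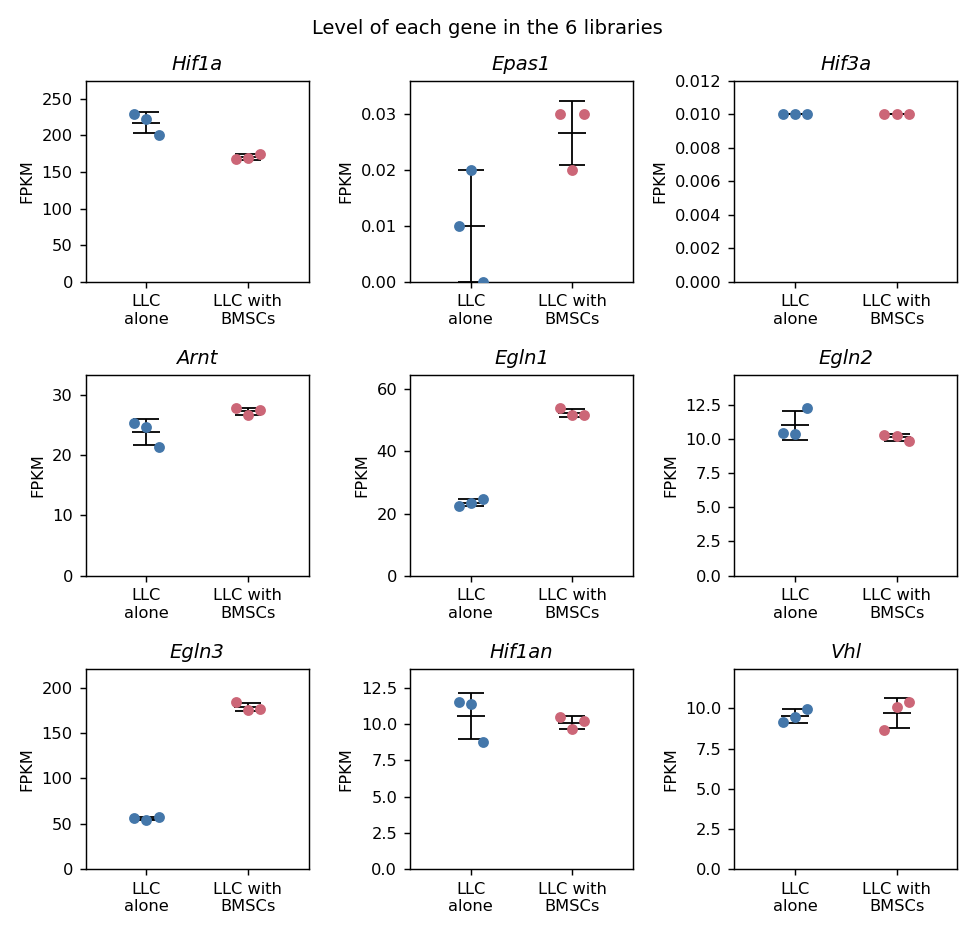
FPKM (vertical axes, linear and starting at 0, with a scale of its own per gene) of the 9 genes in the 3 libraries of LLC alone (blue) and the 3 of LLC with BMSCs (red), replicates 1 to 3 from left to right. Bars are the mean ± SD; Egln1 and Egln3 are higher and Hif1a is lower in all 3 libraries with BMSCs, while Epas1 and Hif3a stay at or under 0.03 FPKM.

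Among the alpha subunits, Hif1a, the ubiquitous oxygen-regulated subunit, was the one with RNA at a high level. In LLC alone its level was 228.5, 222.11 and 200.84 FPKM, listed by replicate number here and throughout, and the libraries with BMSCs gave 167.68, 169.58 and 175.05 FPKM. All 3 libraries with BMSCs were below all 3 without, and LLC alone replicate 3 was the lowest of its group. The means were 217 ± 14.5 and 171 ± 3.83 FPKM (SD, n = 3), or 42449 ± 2811 and 33063 ± 583 normalized counts. The log2 fold change of Hif1a was -0.36 (SE 0.064, 95% interval -0.51 to -0.21, edgeR adjusted p = 0.00173). Over 19 alternatives it lay between -0.50 and -0.32 and stayed called lower, with adjusted p of 1.75e-06 to 0.0376. In LLC alone, Hif1a RNA had a higher mean FPKM than 97.3% of the tested genes. Its annotated exons overlap those of an antisense gene, Gm15283, by 330 bases and of Gm49321, on the same strand, by 148 bases. Neither was analysed here, and whether counting used the strand is not given in the sources used here.

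Epas1 encodes HIF-2 alpha, known for its role in endothelial cells and in the control of erythropoietin. It had estimated counts of 2, 4 and 0 in LLC alone and 7, 4 and 7 in LLC with BMSCs, and its FPKM never exceeded 0.03. Summed over libraries this was 6 counts, or 0.0477 CPM (95% exact Poisson interval 0.0175 to 0.104, counting error only), against 18 counts, or 0.136 CPM (0.0805 to 0.215). Without the filter on low counts its log2 fold change was 1.42 (95% interval -0.37 to 3.22, edgeR adjusted p = 0.173 over 18158 genes), so that a difference was not detectable at this depth. Hif1a supplied at least 99.98% of the summed Hif1a and Epas1 FPKM in each library.

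Hif3a, whose splice forms include inhibitors of HIF, had counts of 2, 3 and 2 in LLC alone and 4, 2 and 4 in LLC with BMSCs, and 0.01 FPKM in all 6 libraries. The sums were 7 and 10 counts, with overlapping exact Poisson intervals of 0.0224 to 0.115 and 0.0362 to 0.139 CPM. Without the filter its log2 fold change was 0.40 (95% interval -1.01 to 1.80, edgeR adjusted p = 0.628). A change of Hif3a was likewise not detectable at this depth.

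Arnt, the beta subunit, was measured at 25.41, 24.74 and 21.44 FPKM in LLC alone and at 27.81, 26.63 and 27.52 in LLC with BMSCs. The groups did not overlap, and LLC alone replicate 3 was the lowest library. The log2 fold change was 0.18 (SE 0.074, 95% interval 0.0041 to 0.35), which did not pass the test (edgeR adjusted p = 0.0691). On log2(FPKM + 1) the limma test gave a log2 fold change of 0.19, which was called with a filter on low FPKM (adjusted p = 0.0464) and not without it (adjusted p = 0.0635). With the length trend removed the edgeR log2 fold change was 0.059 (adjusted p = 0.193). Without LLC alone replicate 3 the edgeR log2 fold change was 0.11 (adjusted p = 0.0542). Arnt2, the related beta subunit known from neural tissue, was at 0.18 ± 0.017 FPKM in LLC alone and 0.23 ± 0.029 in LLC with BMSCs and did not pass the test (edgeR adjusted p = 0.0734), so that Arnt was the beta subunit with the higher RNA level in both groups.

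Egln3, which encodes PHD3, had 56.14, 53.98 and 57.27 FPKM in LLC alone and 183.96, 175.54 and 176.47 in LLC with BMSCs. The lowest library with BMSCs was far above the highest without. The means were 55.8 ± 1.67 and 179 ± 4.62 FPKM (SD, n = 3), and the log2 fold change was 1.66 (SE 0.058, 95% interval 1.52 to 1.79, edgeR adjusted p = 5.95e-07). Of the tested genes, 4.9% had a larger log2 fold change than Egln3. The value ranged from 1.63 to 1.70 over 19 alternatives, and every one of them called Egln3 higher.

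Egln1, which encodes PHD2, the enzyme known as the main oxygen sensor acting on HIF-1 alpha, had 22.4, 23.52 and 24.58 FPKM in LLC alone and 53.88, 51.63 and 51.68 in LLC with BMSCs. Here too the groups were far apart against their spread. The means were 23.5 ± 1.09 and 52.4 ± 1.28 FPKM (SD, n = 3), with a log2 fold change of 1.14 (SE 0.061, 95% interval 0.99 to 1.28, edgeR adjusted p = 4.54e-06). Of the tested genes, 7.6% had a larger log2 fold change than Egln1. Over the 19 alternatives it was 1.07 to 1.18 and called higher in each.

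Egln2, which encodes PHD1, had 10.42, 10.34 and 12.24 FPKM in LLC alone and 10.28, 10.24 and 9.83 in LLC with BMSCs. The FPKM values did not overlap, but by a narrow margin, and LLC alone replicate 3 was the highest library. The log2 fold change of Egln2 was -0.14 (SE 0.082, 95% interval -0.33 to 0.047, edgeR adjusted p = 0.161), and none of the 19 alternatives called it. Its annotated exons overlap those of Cyp2t4 on the opposite strand by 11 bases. Without LLC alone replicate 3 it was -0.05 (adjusted p = 0.41). A rise of the size seen in Egln1 or Egln3 lies outside the interval of Egln2.

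**Figure D2:**
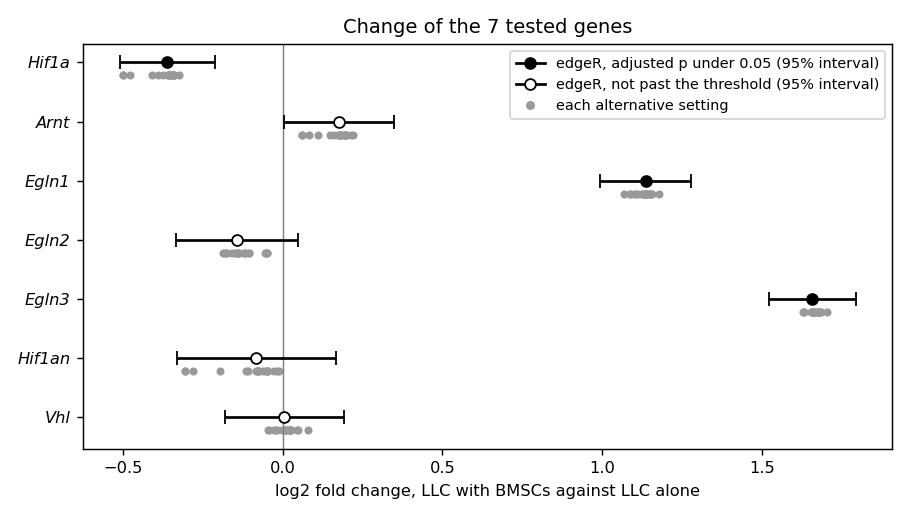
Log2 fold change of the 7 tested members, LLC with BMSCs against LLC alone (horizontal axis), with 95% intervals from edgeR. Filled circles passed an adjusted p of 0.05 and open circles did not; grey points are the 19 alternative settings, which lie between 1.63 and 1.70 for Egln3 and on both sides of 0 for Vhl.

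The make-up of the prolyl hydroxylase RNA differed between the groups, with more of it from Egln3 in LLC with BMSCs. Of the summed FPKM of the 3 enzymes, Egln3 held 63.1%, 61.5% and 60.9% in LLC alone and 74.1%, 73.9% and 74.2% in LLC with BMSCs. The mean share was 61.8 ± 1.16% and 74.1 ± 0.12%, a difference of 12.3 points (two-sided exact permutation test, p = 0.1, which is the lowest value that 3 against 3 libraries can give). The share of Egln1 was 26.0 ± 0.80% and 21.7 ± 0.018%, although its own level rose. The share of Egln2 was 12.2 ± 0.73% and 4.20 ± 0.10%. The summed FPKM of the 3 enzymes was 88.96, 87.84 and 94.09 in LLC alone against 248.12, 237.41 and 237.98 in LLC with BMSCs.

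Set against the alpha subunit, the 3 prolyl hydroxylases together had 0.389, 0.395 and 0.468 FPKM for each FPKM of Hif1a in LLC alone. In LLC with BMSCs this ratio was 1.48, 1.40 and 1.36. The ratio of Egln3 alone to Hif1a was 0.246, 0.243 and 0.285 without BMSCs and 1.10, 1.04 and 1.01 with them. Egln3 RNA was thus below Hif1a RNA in every library of LLC alone and above it in every library of LLC with BMSCs, by a small margin in replicate 3 (176.47 against 175.05 FPKM). These ratios are of RNA and say nothing of the amounts or activity of the proteins.

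**Figure D3:**
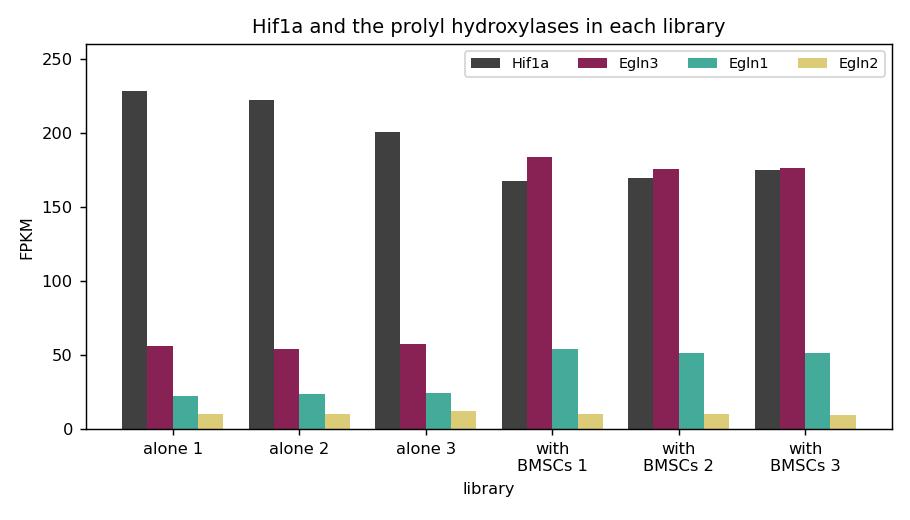
FPKM (vertical axis, from 0) of Hif1a, Egln3, Egln1 and Egln2 in each of the 6 libraries (horizontal axis), 1 bar per gene and library, with no error bars because each bar is a single library. Egln3 is well below Hif1a in the 3 libraries of LLC alone and slightly above it in the 3 of LLC with BMSCs.

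Hif1an, the asparaginyl hydroxylase, had 11.5, 11.39 and 8.75 FPKM in LLC alone and 10.49, 9.62 and 10.17 in LLC with BMSCs. The groups overlapped because of LLC alone replicate 3, the lowest of the 6 libraries. The log2 fold change was -0.08 (SE 0.11, 95% interval -0.33 to 0.17, edgeR adjusted p = 0.522). Without LLC alone replicate 3 it was -0.20 and called lower (adjusted p = 0.00871), and with each library's trend over gene length removed it was -0.31 (adjusted p = 0.000265). Whether Hif1an differs between the groups thus depends on that library and on the length trend.

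Vhl had 9.14, 9.48 and 9.98 FPKM in LLC alone and 8.67, 10.08 and 10.39 in LLC with BMSCs. The groups overlapped fully, and the log2 fold change was 0.0057 (SE 0.080, 95% interval -0.18 to 0.19, edgeR adjusted p = 0.955). Among the partners of Vhl in its ubiquitin ligase, the adaptor subunits Tceb1 (elongin C) and Tceb2 (elongin B) fell, from 181 ± 24.0 to 138 ± 11.8 FPKM and from 441 ± 67.0 to 333 ± 37.1 FPKM. Their log2 fold changes were -0.50 (edgeR adjusted p = 0.00329) and -0.43 (adjusted p = 0.0163). The RING subunit Rbx1 fell by 0.35 on the log2 scale (adjusted p = 0.0186), and the scaffold Cul2 did not pass the test, with -0.08 and an adjusted p of 0.218.

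Ordered by mean FPKM, the genes of LLC alone ran Hif1a, Egln3, Arnt, Egln1, Egln2, Hif1an, Vhl, Epas1 and Hif3a. The library ranges of Arnt and Egln1 overlapped in that group, as did those of Egln2 with Hif1an, Hif1an with Vhl, and Epas1 with Hif3a. In LLC with BMSCs the order was Egln3, Hif1a, Egln1, Arnt, Egln2, Hif1an, Vhl, Epas1 and Hif3a, and only the neighbours among Egln2, Hif1an and Vhl overlapped. The changes of order were thus Egln3 passing Hif1a and Egln1 passing Arnt.

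Of the members, Hif1a and Arnt had more than 1 quantified transcript. Hif1a RNA was divided among 5, of which NM_001313920 was the most abundant, at 61.0 ± 2.25 FPKM in LLC alone and 45.7 ± 5.90 in LLC with BMSCs (SD, n = 3). T001783, a transcript that the authors' pipeline assembled, was at 49.6 ± 7.80 and 25.6 ± 6.34 FPKM. For both of these the groups did not overlap, with the lower values in LLC with BMSCs. The remaining 3, T001784, NM_001313919 and NM_010431, overlapped between the groups. The share of NM_001313920 in Hif1a was 27.5%, 27.7% and 29.1% in LLC alone and 23.3%, 28.1% and 28.8% in LLC with BMSCs, with overlapping groups (two-sided exact permutation test, p = 0.8, adjusted 0.8 over the 2 genes). The share of T001783 did not overlap between the groups, at 24.6%, 23.3% and 20.4% against 19.6%, 13.2% and 12.3%. Nor did that of NM_001313919, at 9.80%, 9.95% and 7.17% against 12.9%, 11.5% and 11.6%, and these were not tested.

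For Arnt, transcript NM_001037737 held 71.0%, 72.5% and 73.0% of the FPKM in LLC alone and 77.9%, 77.8% and 77.0% in LLC with BMSCs. The difference was 5.42 points, with groups that did not overlap (two-sided exact permutation test, p = 0.1, adjusted 0.2 over the 2 genes). The level of this transcript was 17.2 ± 1.34 FPKM in LLC alone and 21.2 ± 0.47 in LLC with BMSCs, while NM_009709 was at 6.65 ± 0.81 and 6.12 ± 0.22 FPKM with overlapping groups. Transcripts of 1 gene share most of their sequence, so that these levels rest on how reads were divided among them.

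**Figure D4:**
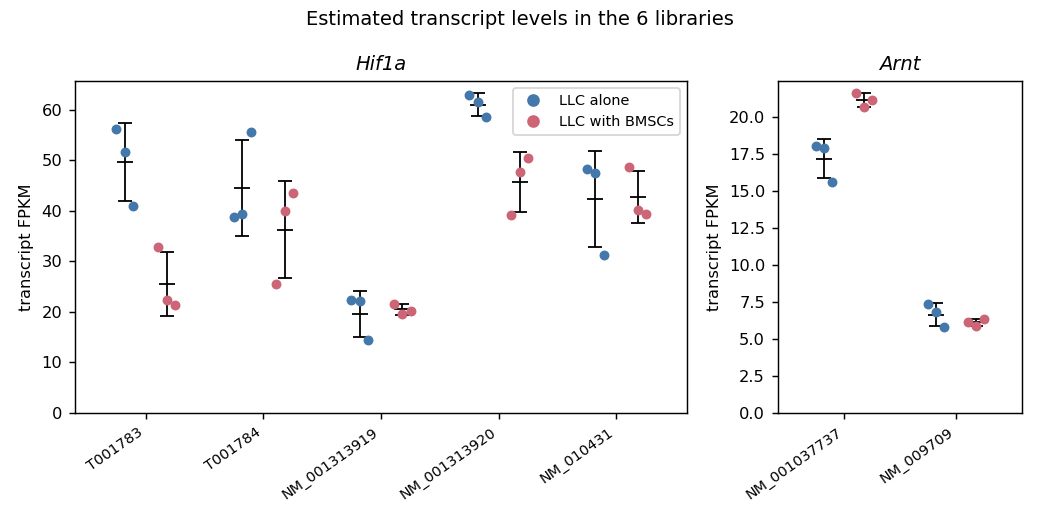
Transcript FPKM (vertical axes, from 0) of the 5 Hif1a transcripts and the 2 Arnt transcripts in the 3 libraries of LLC alone (blue) and the 3 of LLC with BMSCs (red), with the mean ± SD. T001783 and NM_001313920 of Hif1a are lower and NM_001037737 of Arnt is higher in all 3 libraries with BMSCs, and the other transcripts overlap between the groups.

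Among 22 other partners and regulators of HIF, 21 were tested, of which 4 were called higher, 9 lower and 8 neither. These are 19.0% higher and 42.9% lower, against 31.5% and 31.3% of all genes, with a median log2 fold change of -0.13 against 0.012. The largest fall among those called was that of Cited2, which competes with HIF for Ep300 and Crebbp and is itself a known HIF target. Cited2 had 148.74, 139.63 and 155.75 FPKM in LLC alone and 92.49, 84.84 and 89.4 in LLC with BMSCs, a log2 fold change of -0.76 (SE 0.068, edgeR adjusted p = 5.57e-05). The coactivators Ep300 and Crebbp themselves did not pass the test, with log2 fold changes of -0.12 and 0.17. Ep300 had 19.37, 19.67 and 11.64 FPKM in LLC alone and 17.93, 14.27 and 14.93 in LLC with BMSCs. Both were lowest in LLC alone replicate 3, and without it Ep300 was called lower (log2 fold change -0.33, edgeR adjusted p = 0.0108) and Crebbp was at -0.07 (adjusted p = 0.572). Without that library Siah1b and Siah2, ubiquitin ligases that act on the EGLN enzymes, were called higher and Fkbp8 was no longer called lower. The chaperones Hsp90ab1 and Hsp90aa1, which bind and stabilise HIF-1 alpha, rose by 0.62 and 0.43 on the log2 scale. Rack1, which competes with HSP90 for HIF-1 alpha, fell by 0.47. Wdr83, a scaffold described as a partner of PHD3, rose by 0.65, and Senp1, which removes SUMO from HIF-1 alpha, rose by 0.54, while Rwdd3, which promotes SUMO conjugation, fell by 0.60. Apart from the Vhl ligase subunits given above, the others called lower were Usp20, Ing4 and Fkbp8, which fell by 0.45, 0.34 and 0.26. What these changes of RNA mean for HIF-1 alpha protein was not tested. P4htm, a membrane-bound prolyl hydroxylase, had a mean of 0.16 FPKM in LLC alone and 0.09 in LLC with BMSCs and did not pass the test (log2 fold change -0.89, edgeR adjusted p = 0.155).

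Of 48 known HIF target genes, 47 were found in the files used and 45 were tested. There were 29 called higher (64.4%), 5 lower (11.1%) and 11 neither, against 31.5% and 31.3% of all genes, and the median log2 fold change was 0.62. By 1 or more on the log2 scale, 11 were higher (8.65% of all genes were) and none lower. The list was made with results of these data known, and no test was run on it as a set. The direction of most of its tested members was that of Egln3 and Egln1, which are targets too but were not counted in it. Cited2, a known target counted above among the partners, was not in the list either, and it fell (log2 fold change -0.76).

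Several of the genes that rose most in the list are enzymes of collagen. Lox, which cross-links collagen, had the largest rise, from 0.02, 0.03 and 0.01 FPKM in LLC alone to 3.2, 3.43 and 3.26 in LLC with BMSCs (log2 fold change 7.40, SE 0.18, edgeR adjusted p = 1.12e-07). Loxl2, of the same family, rose from 7.92 ± 0.89 to 28.7 ± 0.92 FPKM. The collagen hydroxylases P4ha2, Plod2 and P4ha1, which are related to the EGLN enzymes and use the same cosubstrates, rose by 1.42, 1.25 and 0.81 on the log2 scale. Lox had so few counts in LLC alone that it passed the filter on low counts through the libraries with BMSCs, and these genes were grouped after their values were seen, so that their common direction is a description.

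Stc1, a secreted glycoprotein, rose from 0.29 ± 0.035 to 2.80 ± 0.28 FPKM, and Adm, the vasodilator adrenomedullin, from 14.8 ± 1.0 to 45.1 ± 1.79. Among the 4 tested secreted factors, a role grouped after the values were seen, the other 2 were lower. The shares called higher and lower were 50% each, against 31.5% and 31.3% of all genes. Angptl4, an inhibitor of lipoprotein lipase, fell from 33.2 ± 2.94 to 18.7 ± 0.29 FPKM, and Vegfa, the main angiogenic growth factor, fell by 0.17 on the log2 scale, from 40.9 ± 0.82 to 36.8 ± 0.46 FPKM (edgeR adjusted p = 0.0239). Of the 6 mitochondrial genes, also grouped after the values were seen, 5 were tested. There were 4 called higher (80%) and 0 lower, against 31.5% and 31.3% of all genes. Bnip3, a receptor of mitophagy, rose from 34.0 ± 2.16 to 118 ± 7.74 FPKM, and its relative Bnip3l by 0.92 on the log2 scale.

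Of 17 genes of glucose uptake and glycolysis, a role grouped after the values were seen, 11 were called higher, 1 lower and 5 neither, and the median log2 fold change was 0.44. The higher share was 64.7% and the lower 5.88%, against 31.5% and 31.3% of all genes. Aldoa, Aldoc and Pgk1 were also called higher without LLC alone replicate 3. Slc2a1, the basal glucose transporter, rose from 55.0 ± 1.07 to 118 ± 1.48 FPKM, and Pdk1, which holds pyruvate back from the mitochondria, rose by 1.07 on the log2 scale. Ldha, lactate dehydrogenase A, rose by 0.62, whereas Slc2a3, another glucose transporter, fell by 0.70. Of 6 targets that act on transcription and chromatin, also grouped after the values were seen, 5 were called higher and 1 lower. These are 83.3% and 16.7%, against 31.5% and 31.3% of all genes. The 6 included the clock-related repressors Bhlhe40, which rose by 1.57, and Bhlhe41, which fell by 0.38.

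Several familiar HIF targets did not pass the test. Car9, the carbonic anhydrase used as a hypoxia marker, was at 0.49 ± 0.040 FPKM in LLC alone and 0.54 ± 0.11 in LLC with BMSCs (log2 fold change 0.11, edgeR adjusted p = 0.565). Ndrg1 was at 91.7 ± 2.32 and 93.0 ± 6.72 FPKM, and Hilpda, of the lipid droplet, at 27.2 ± 3.30 and 29.3 ± 2.88, and neither passed the test. Ddit4, an inhibitor of mTORC1, had the largest fall of the list, from 67.43, 63.83 and 74.09 to 34.32, 36.55 and 35.34 FPKM (log2 fold change -0.97, adjusted p = 2.24e-05). Epo was not analysed here, and Stc2 and Cox4i2 were too low to test.

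**Figure D5:**
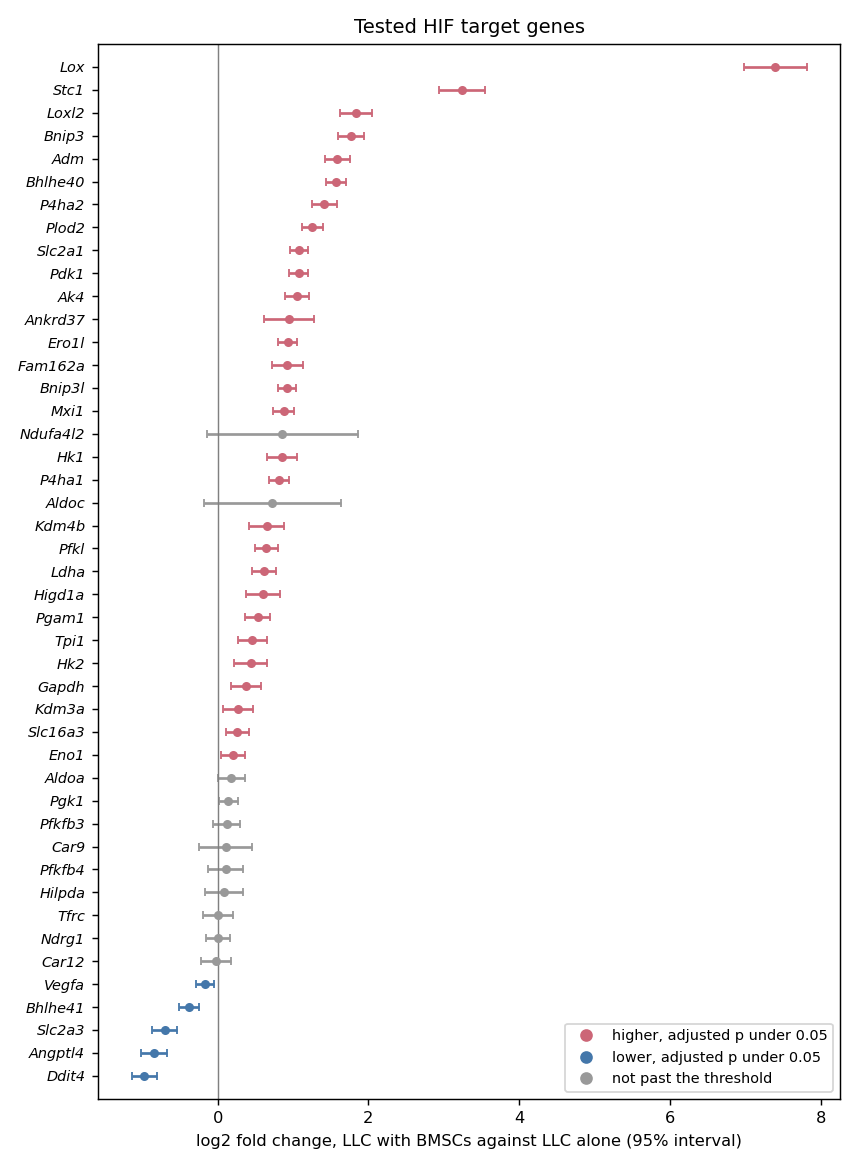
Log2 fold change with its 95% interval (horizontal axis, LLC with BMSCs against LLC alone) of the 45 tested HIF target genes, ordered by value, from edgeR. Red marks the 29 called higher, from Eno1 at 0.20 to Lox at 7.40, blue the 5 called lower, and grey the 11 that did not pass an adjusted p of 0.05.

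Of 15 other oxygen-dependent dioxygenases, enzymes that use oxygen for a reaction on protein or nucleic acid outside the HIF pathway, 14 had a row and were tested. There were 4 called higher, 2 lower and 8 neither, with a median log2 fold change of 0.083, shares of 28.6% and 14.3% against 31.5% and 31.3% of all genes. Alkbh5, an RNA demethylase, rose from 21.8 ± 2.32 to 42.8 ± 0.56 FPKM, Ado, the cysteamine dioxygenase, by 0.70 on the log2 scale, Ogfod1, a ribosomal prolyl hydroxylase, by 0.68, and Kdm5c, a histone demethylase, by 0.43. Kdm5b fell by 0.76. Tet1, which oxidises methylcytosine, was at or under 0.03 FPKM in every library and at 0 in all 3 with BMSCs, at least 4.78-fold lower against a floor of 3 counts per library. It passed the filter on low counts through LLC alone, so that being tested already meant being high there. Its call is therefore a description. Without LLC alone replicate 3, Kdm5a, Tet3 and Fto were also called lower, which made 5 of the 14, and Tet2 was called higher. In that fit 4539 of all 13541 tested genes were called lower and 4736 higher. Riox1 was not analysed here.

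Markers of other cells differed between the same libraries. The 9 mesenchymal stromal markers summed to 65.4 to 85.0 CPM in LLC alone and 132 to 144 CPM in LLC with BMSCs. The most abundant, Pdgfrb and Pdgfra, rose from 6.59 ± 0.98 to 8.75 ± 0.51 FPKM and from 5.78 ± 0.89 to 8.13 ± 0.27 FPKM (log2 fold changes 0.41 and 0.47), and Dcn went from 0.11 to 6.31 FPKM, while Thy1 and Cxcl12 were at 0 in LLC alone and under 0.1 FPKM in the mean with BMSCs. Of the 9, 7 were tested and called higher, where 31.5% of all tested genes were. But Dcn, Col1a1 and Lum had at most 8 counts in any library of LLC alone. They passed the filter on low counts through the libraries with BMSCs, so that being tested already meant being high there. The same holds for several neutrophil and macrophage markers, and the numbers called are therefore a description.

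The neutrophil markers summed to 0.433 to 0.717 and 17.7 to 20.4 CPM, of which S100a8 and S100a9 were the most abundant, with 20.2 and 22.4 FPKM in LLC with BMSCs. Of 7 found in the files used, 5 were tested and called higher, where 31.5% of all tested genes were. Among them were S100a8, S100a9, Csf3r and Mpo, with at most 2 counts in any library of LLC alone. Csf3r, Mpo, Elane and Ly6g were all under 0.3 FPKM in the mean of both groups, and Ly6g, not tested, was the lower with BMSCs, at 0.08 and 0.047 FPKM. The 8 macrophage markers summed to 24.0 to 28.8 and 36.0 to 38.6 CPM, with 6 called higher (75%, against 31.5% of all tested genes). Adgre1, Itgam, Ptprc and Mrc1 among these 6 had at most 9 counts in any library of LLC alone and passed the filter through the libraries with BMSCs. The most abundant macrophage marker, Cd14, did not pass the test (9.49 ± 0.97 and 10.1 ± 0.87 FPKM), Cd68 was called lower, and Adgre1 was at 0 in LLC alone.

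All 9 endothelial markers were under 1 FPKM in both groups, at summed levels of 1.06 to 1.31 and 1.48 to 1.89 CPM. Only 2 of them, Pecam1 and Vwf, were tested, and neither was called. Cdh5, not tested, had 2, 1 and 1 counts in LLC alone and 10, 8 and 14 in LLC with BMSCs. The erythroid sums were 8.51 to 8.92 and 10.6 to 11.5 CPM, with 2 of 4 called higher and 1 lower. The pericyte sums were 5.33 to 7.71 and 3.74 to 4.90 CPM, with 2 of 5 called higher and 1 lower, and none of the lymphocyte markers was high enough to test.

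Between the groups, Egln3 alone gained 322 CPM and Egln1 gained 99.9 CPM, while the 45 markers of these 7 other cell types together gained 88.9 CPM. The level of Egln3 or Egln1 in BMSCs or in host cells was not among the values analysed here. The part that RNA of other cells has in the changes of the members and of the HIF targets was not tested. The stromal markers were higher in the same libraries as Lox and Loxl2, and their part in those changes was not tested either.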

How the data were processed

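RNA sequencing of sorted LLC cells was analysed in 6 libraries, 3 per group as the sample labels give them. According to the study's methods, RNA was taken with TRIzol, enriched with oligo-dT beads and sequenced as paired ends on a BGISEQ-500, while the labels name Illumina protocols. The submitters' processing notes name HISAT, StringTie, Cufflinks, GATK and mm8. The counting program, annotation and strand setting are not given in the sources used here. For genes and transcripts, the authors deposited estimated counts without normalization, which were fractional in 21.9% to 23.2% of the genes listed in a library, although all 54 values of the 9 members were whole exactly as deposited. The authors also deposited FPKM values, which correct for length and depth, and a length in bases for each gene. FPKM of 1 gene can shift when abundant genes change.

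Estimated counts were rounded and tested with edgeR 4.0.16 in R 4.3.3 (TMM, default filter on low counts, quasi-likelihood test, Benjamini-Hochberg adjustment over all 13353 tested genes, threshold 0.05). The standard error is the absolute log2 fold change over the square root of the test statistic, and normalized counts are CPM scaled to the mean effective library size. The biological coefficient of variation was 9.92%. The edgeR step was tested on simulated data. Shares used exact permutation tests on 3 against 3 libraries, which cannot give a two-sided p below 0.1. Exact Poisson intervals and floors of 3 counts cover counting error only. The intervals of log2 fold changes rest on the standard error of the quasi-likelihood test, which includes the spread between libraries.

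The members and gene lists were chosen with earlier results of these data known. All 9 members are named with each library's value. Of the partners, the HIF targets and the other dioxygenases, the 4 genes with the largest absolute log2 fold change called in each direction are named. Only genes with a mean of at least 1 FPKM in either group were ranked for this. The Vhl ligase subunits, Arnt2 and P4htm are named as well. Of the marker lists, only some of the most abundant genes and some of those at 0 are named. Other genes named singly, and the roles of the HIF targets, were chosen after their values were seen. The alternatives were DESeq2 1.42.0, other scalings and count filters, limma 3.58.1 on log2(FPKM + 1) and log2(FPKM + 0.1), removal of length or length and GC trends, a replicate block, closest replicates summed, each library left out, and, for counts of genes, an added fold threshold. The joint removal of length and GC trends was chosen after seeing the data. A known HIF target is not reported here and was left out of the list and its counts. Promoter windows came from RefSeq on GRCm38.p6.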

Additional observations from a re-analysis of the deposited data

How the results depend on the processing

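Hif1a, Egln1 and Egln3 kept their direction and their call, and Egln2 stayed uncalled, in all 19 alternatives. Arnt was called higher by limma on log2(FPKM + 1) and log2(FPKM + 0.1), at 0.19 and 0.20 (adjusted p of 0.0464 and 0.0469), but not by limma on log2(FPKM + 1) without a filter (adjusted p = 0.0635). Members called lower numbered 2 in place of 1 with the length trend, the length and GC trends, or the length trend and a replicate block taken out, where Hif1an was at -0.31, -0.28 and -0.31, and 1 to 2 with 1 library left out, 2 without LLC alone replicate 3. The dioxygenases called lower numbered 5 in place of 2 in the same 3 settings, 1 with at least 10 counts in every library and with both filtered limma fits, and 2 to 5 with 1 library left out. Of all 13353 tested genes, 4573, 4674 and 4548 were called lower in those 3 settings, against 4183 as reported. With 1 library left out the number was 3581 to 4539, the highest without LLC alone replicate 3. With a log2 fold change of 1 or more in size also asked for, 0 members were lower, 0 partners were higher and 0 lower, 11 HIF targets were higher and 0 lower, 0 dioxygenases were higher and 1 lower, and 1155 and 957 of all genes were higher and lower. The log2 fold change of Vhl crossed 0, at -0.024 with upper-quartile scaling, -0.047 with closest replicates summed and -0.042 to 0.079 with 1 library left out. The share of the leading Hif1a transcript differed by -2.42 to 0.31 points with 1 library left out, positive without LLC with BMSCs replicate 1. Apart from the length trends and that left-out library, the cause of these moves was not tested. Replicate numbers did not pair the libraries, because deviations from the group means correlated at 0.0762, -0.106 and 0.0572 between libraries of the same number. With the replicate block, 2 members were higher and 1 lower, at 1.66 for Egln3, 1.14 for Egln1 and -0.36 for Hif1a, and 4161 and 4058 of all genes were called higher and lower. Depth limits Epas1 and Hif3a only, among the members.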
